A study of Mus musculus with 2 samples.

Results

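The lysosomal cathepsins described here were Ctsa, Ctsb, Ctsc, Ctsd, Ctsh, Ctsk, Ctsl, Ctss and Ctsz, 9 of the 26124 genes counted in both single-cell expression matrices. They were taken by name from the cathepsin family, with earlier results of these data known. The family has further members, and 5 other cathepsins were kept as a separate list. Lineage-depleted (Lin-) bone marrow progenitors of 8- to 10-week-old C57BL/6 mice were grown with 20 ng/ml GM-CSF, the growth factor that drives such cultures towards dendritic cells and other phagocytes. On day 3 the cultures received 300 µM heme-albumin, or albumin as the vehicle control, and cells of culture days 0, 3, 4, 5 and 7 were told apart by hashtag antibodies, which carry a DNA barcode. The control library and the heme library were each a single pool of 5 hashtagged cultures, all on the same wild-type background and all with GM-CSF, so days 0 and 3 of the heme library were labelled as times before or at heme addition. The Lin- cells were enriched by depletion and not sorted for 1 progenitor type, and each group was 1 library. There were no replicates and no test was possible, and the 95% intervals below are exact (Poisson for levels and ratios, Clopper-Pearson for shares of cells) and cover counting error only.

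Cathepsins are proteases that are made as inactive precursors, sorted to endosomes and lysosomes and activated at acid pH. In phagocytes they digest engulfed proteins, and in antigen-presenting cells some of them trim antigens and the invariant chain that occupies MHC class II. Cystatins inhibit the cysteine cathepsins, and transcription factors of the MiT/TFE family bind E-boxes in the promoters of many lysosomal genes.

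By position in the mouse genome (GRCm38), Ctsa (chr2:164832873-164841032, plus strand) and Ctsz (chr2:174427493-174439039, minus strand) shared a chromosome, as did Ctsc (chr7:88278085-88310888, plus strand) and Ctsd (chr7:142375911-142388038, minus strand). Ctsk (chr3:95499256-95509362, plus strand) and Ctss (chr3:95526786-95556403, plus strand) were near each other on the same strand. Ctsb lay at chr14:63122462-63145923 (plus strand), Ctsh at chr9:90054152-90076089 (plus strand) and Ctsl at chr13:64359337-64370890 (minus strand).

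Promoter sequence from RefSeq (GRCm38.p6) was matched by symbol for 7 of the 9 genes, in 8 entries since Ctsa had a pair. The 250 bases before the start site were searched on both strands for the E-box CACGTG and for TGACNNNGC, the core of the antioxidant response element to which NRF2, the heme-responsive factor studied in these cultures, binds. The E-box was present for 3 members (Ctsa, Ctsd and Ctsl), and in 6.02% of the 32851 promoter entries of all genes. TGACNNNGC was present for 2 members (Ctsd and Ctsz), and in 10.2% of all entries. The sequences below are shown because Ctsd had the highest level and both motifs, the second Ctsa entry had an E-box close to its start, and Ctss and Ctsz had day 7 levels that were lower in the heme library. Each is written 5′ to 3′ on the strand of its gene and ends at the base before the start site, and capitals mark a motif match on either strand.
Ctsd (chr7:142387828-142388077, minus strand): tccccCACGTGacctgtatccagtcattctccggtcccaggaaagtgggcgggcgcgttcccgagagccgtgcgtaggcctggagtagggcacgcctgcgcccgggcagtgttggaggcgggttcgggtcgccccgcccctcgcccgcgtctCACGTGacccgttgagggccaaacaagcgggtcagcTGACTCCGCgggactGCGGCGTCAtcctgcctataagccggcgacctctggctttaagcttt
Ctsa (chr2:164833523-164833772, plus strand): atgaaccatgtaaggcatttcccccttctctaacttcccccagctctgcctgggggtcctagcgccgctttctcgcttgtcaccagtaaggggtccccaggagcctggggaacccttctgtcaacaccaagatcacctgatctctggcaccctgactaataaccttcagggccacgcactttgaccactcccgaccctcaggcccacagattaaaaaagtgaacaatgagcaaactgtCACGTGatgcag
Ctsz (chr2:174439040-174439289, minus strand): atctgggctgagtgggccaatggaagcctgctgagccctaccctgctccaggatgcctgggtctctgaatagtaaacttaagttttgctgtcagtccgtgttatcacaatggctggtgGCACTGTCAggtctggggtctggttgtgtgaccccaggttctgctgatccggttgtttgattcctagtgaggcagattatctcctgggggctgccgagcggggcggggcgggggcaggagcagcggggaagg
Ctss (chr3:95526536-95526785, plus strand): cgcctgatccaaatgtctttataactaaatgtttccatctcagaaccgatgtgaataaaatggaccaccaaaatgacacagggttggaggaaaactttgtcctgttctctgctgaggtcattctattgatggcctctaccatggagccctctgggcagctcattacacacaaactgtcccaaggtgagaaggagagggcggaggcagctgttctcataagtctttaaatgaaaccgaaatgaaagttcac
The Ctsd stretch held the E-box at 2 places, -245 and -98 bases from the start, and TGACNNNGC at -62 and -47, the latter on the opposite strand. The E-box of the second Ctsa entry began at -12, and the match of Ctsz at -132 was on the opposite strand. The Ctss stretch had neither motif. The start sites are those of RefSeq and need not be the gene ends given above. By those gene positions, the second Ctsa window and the Ctsl window (not shown) lay inside their genes. Of the Ctsd window, the part with the matches at -98, -62 and -47 did too. A match says only that these letters are in the window.

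The control library held 9684 kept cells and the heme library 9941, from 598 to 2715 per culture, with median UMIs (unique transcript counts) per cell between 7912 and 15078 in the 10 cultures. The barcodes of the libraries overlapped at 112 of all barcodes and at 33 among kept cells. The libraries differed in cells labelled as day 0. Hmox1, which encodes the heme-degrading enzyme, was at 1.94 CPM (counts per 1000000 UMIs) in day 0 control cells and 133 CPM in day 0 heme-library cells. Marco, a scavenger receptor gene, was at 0.162 and 8.11 CPM. Day 0 cells were pooled with cells of the later days, so these counts need not predate heme. Whether free RNA or hashtags of other cultures gave these counts was not tested. If the day 0 Marco level of the heme library is read as free RNA, it came to 6.44% of that library's mean Marco level. The same share of each cathepsin's library mean was between 13.4% (Ctsh) and 78.0% (Ctsk) of its own day 0 level, and 25.7% for Ctsd. Limits on genes per cell took away more of the heme library, since 26.1% of day 7 hashtag singlets had over 5000 genes there and 4.82% in the control library.

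Levels in CPM were summed over the kept cells of a culture, and a 3′ method does not favour long transcripts on this scale. Ctsd, which encodes the aspartic protease cathepsin D, had the highest level of the family in 9 of the 10 cultures. In control cells on days 0, 3, 4, 5 and 7 it was at 197, 399, 688, 1187 and 1214 CPM, and in the heme library at 280, 606, 1082, 1589 and 1844 CPM. The heme library was higher on each of the 5 days, days 0 and 3 included, and no intervals of neighbouring levels overlapped. Ctsa encodes a serine carboxypeptidase that also protects beta-galactosidase and neuraminidase in the lysosome. Its control levels were 39.1, 82.5, 91.5, 152 and 202 CPM and its heme-library levels 65.4, 96.5, 113, 162 and 246 CPM. The order followed the culture day, except that heme day 3 lay just above control day 4 with overlapping intervals, and the heme library was above the control on each day, with overlap on day 5.

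Among the cysteine endopeptidases, Ctsb, a broad lysosomal protease with endo- and exopeptidase activity, was at 118, 186, 280, 475 and 556 CPM in the control library. In the heme library Ctsb was at 150, 252, 358, 543 and 777 CPM, above the control on each of the 5 days. Its only overlap was between control day 7 and heme day 5. Ctsl, the cathepsin that also processes the invariant chain in thymic epithelium, was at 26.8, 68.7, 76.5, 104 and 217 CPM in the control library and at 24.6, 58.8, 83.4, 160 and 205 CPM in the heme library. The libraries stood furthest apart for Ctsl on day 5, when heme was higher, and on day 7 the control was higher by a small margin.

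Ctss, whose product makes the last cuts of the invariant chain in antigen-presenting cells, was at 53.0, 179, 225, 429 and 898 CPM in the control library. In the heme library it was at 68.6, 181, 150, 337 and 700 CPM. Day 3 overlapped between the libraries, and the heme library was lower on days 4, 5 and 7. Ctsk, known as the collagen-degrading protease of osteoclasts, was rare, at 0.162, 0.952, 2.11, 1.66 and 6.78 CPM in the control library and at 0.227, 1.13, 0.947, 1.34 and 8.83 CPM in the heme library. Between 1 and 55 Ctsk UMIs lay behind each value before day 7, so that 7 of its 9 neighbouring levels overlapped, and 235 and 238 UMIs lay behind those of day 7.

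The exopeptidases were Ctsc, Ctsh and Ctsz. Ctsc encodes dipeptidyl peptidase 1, which activates serine proteases of granules. It had its own time course, at 38.9, 335, 243, 288 and 425 CPM in the control library and at 57.4, 312, 199, 336 and 505 CPM in the heme library. In both libraries the day 4 level lay below the day 3 level. Ctsh, an aminopeptidase, was at 55.7, 113, 122, 171 and 242 CPM in the control library and at 52.9, 98.3, 93.1, 120 and 161 CPM in the heme library, with 4 overlaps between neighbouring levels. Ctsz, a carboxypeptidase also called cathepsin X, was at 155, 434, 506, 720 and 841 CPM in the control library and at 183, 384, 377, 535 and 552 CPM in the heme library. For Ctsh and Ctsz the heme library was lower on days 3, 4, 5 and 7.

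**Figure D1:**
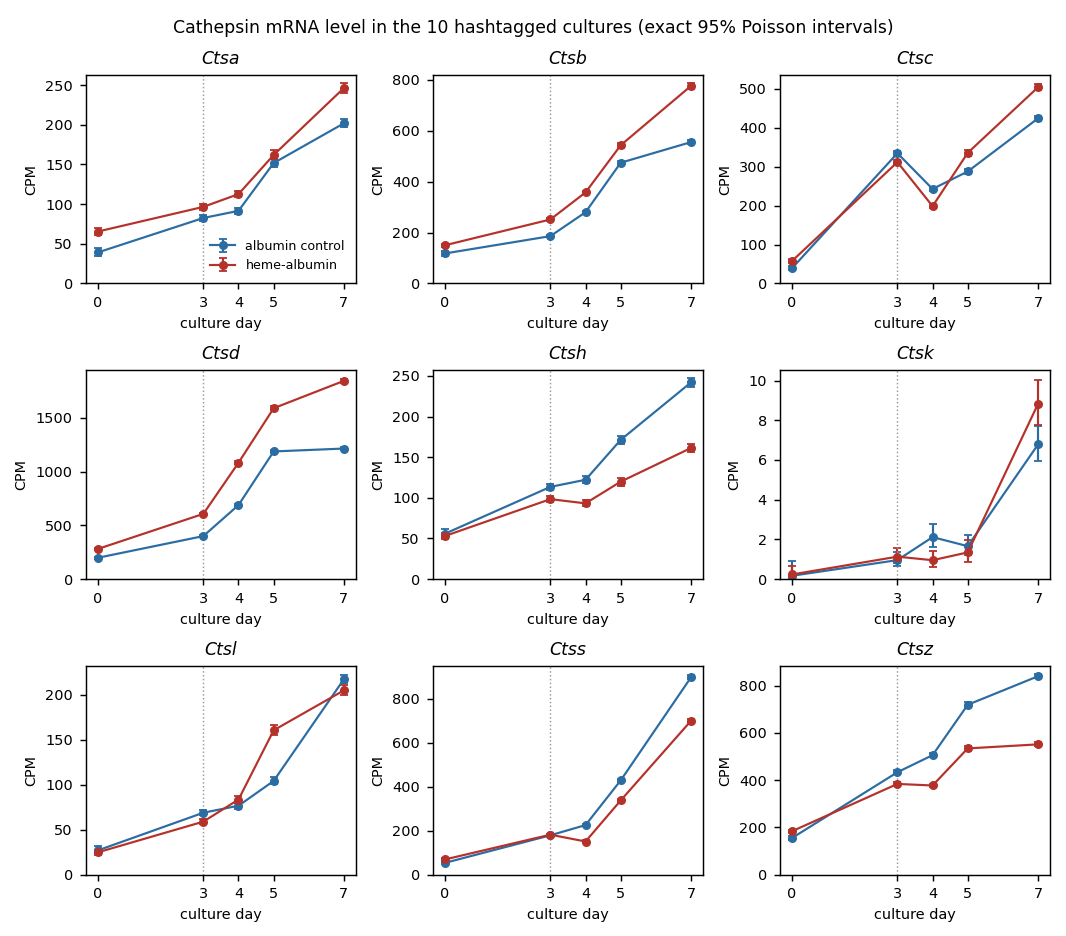
Level of each of the 9 cathepsins in CPM (y axis) on culture days 0, 3, 4, 5 and 7 (x axis) in the control library (blue) and the heme library (red), with exact 95% Poisson intervals as bars and a dotted line at day 3, when heme was added. In CPM the heme library lies above the control for Ctsd, Ctsb and Ctsa on each of the 5 days (Ctsb and Ctsa turn on day 5 under TMM and DESeq2 scaling, Ctsb also on day 0 and Ctsa under DESeq2 on day 3). It lies below the control for Ctss on days 4, 5 and 7 and for Ctsz and Ctsh on days 3, 4, 5 and 7. Of these lower values, Ctss on days 4 and 5 and Ctsz on days 3 and 5 changed sign under at least 1 alternative way of processing. Of the higher values, Ctsd on day 5, Ctsb on days 0, 4 and 5 and Ctsa on days 3, 5 and 7 also did.

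The 9 genes together took a growing share of all UMIs with time in culture. The share was 0.0684%, 0.180%, 0.223%, 0.353% and 0.460% on days 0, 3, 4, 5 and 7 in the control library and 0.0882%, 0.199%, 0.246%, 0.378% and 0.4999% under heme. The day 7 ratio of heme to control was 1.09 (95% interval 1.08 to 1.09), and that of day 0 was 1.29 (1.25 to 1.34). The family's make-up differed more than its sum. Of the day 7 cathepsin UMIs, Ctsd accounted for 26.4% under control and 36.9% under heme conditions, Ctsz for 18.3% and 11.0%, and Ctss for 19.5% and 14.0%.

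From day 3 to day 7, 7 of the 9 genes were at least 2-fold higher in the control library, where 11.4% of all genes were higher and 7.93% lower. In the heme library 6 of the 9 were, where 9.79% of all genes were higher and 7.52% lower, and 0 members were lower in either. Both counts of higher members include Ctsk, which was under 10 CPM, while the shares of all genes leave such genes out. Ctss differed most among the abundant members, 5.03-fold in the control library (4.88 to 5.18) and 3.86-fold in the heme library (3.75 to 3.97). Ctsd was 3.04-fold higher in both, with intervals of 2.98 to 3.10 and 2.99 to 3.09. Ctsc (1.27-fold and 1.62-fold) and Ctsz (1.94-fold and 1.44-fold) stayed under 2-fold in both libraries, and Ctsh was 2.13-fold and 1.64-fold higher.

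The comparison of heme with control asks which cathepsin transcripts differ between cultures with and without heme on the same day. In a bulk sum over a culture, fewer cells of a type and less RNA per cell cannot be told apart. On day 7, 0 of the 9 members were 2-fold or more higher in the heme library, where 12.5% of all genes with 10 CPM in at least 1 culture were, and 0 were 2-fold or more lower, where 5.01% were. On day 4 the shares of all genes were 4.91% higher and 2.2% lower, and on day 5 they were 5.34% and 2.46%. On the days labelled as before or at heme addition they were 14.4% and 1.38% (day 0), and 3.4% and 0.155% (day 3). Of the members, 0 passed 2-fold on days 0, 3 and 5, and 1, Ctsk, was lower on day 4. That Ctsk ratio of 0.449 (0.270 to 0.728) rested on 55 control and 26 heme UMIs at under 10 CPM. The other 8 members reached 10 CPM in both libraries on each of the 5 days. The shares of all genes leave out genes under 10 CPM, and of these 8 members 0 passed 2-fold.

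Below 2-fold, the members split by direction. On day 7 Ctsd had a heme to control ratio of 1.52 (1.499 to 1.54), Ctsb 1.398 (1.37 to 1.43), Ctsa 1.22 (1.18 to 1.26) and Ctsc 1.19 (1.16 to 1.22). The ratio was 0.656 for Ctsz (0.643 to 0.669), 0.666 for Ctsh (0.642 to 0.691) and 0.779 for Ctss (0.765 to 0.794). Ctsl was at 0.943 (0.910 to 0.976) and Ctsk at 1.30 (1.08 to 1.57). The median log2 ratio of the 9 members was 0.25 beside 0.29 for all genes with 10 CPM. Of the 9, 3 exceeded that all-gene median (Ctsd, Ctsb and Ctsk). Without Ctsk, which was under 10 CPM, the middle values of the members were -0.09 (Ctsl) and 0.25 (Ctsc). Under TMM and DESeq2 scaling, which center the typical gene near 0, Ctsd was at 0.37 and 0.34 and Ctsb at 0.25 and 0.22, while Ctsa was at 0.05 and 0.03 and Ctsc at 0.02 and -0.01. The direction of Ctsa, Ctsb and Ctsc on day 5 turned under both scalings, to between -0.15 and -0.01, and Ctsl on day 4 turned to -0.08 and -0.12.

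The ratios of days 0 and 3, labelled as before or at heme addition, are given beside these values. Free RNA of the heme pool, estimated from its day 0 Marco level, came to 71.9 CPM for Ctsd and 27.7 CPM for Ctsb. The part of free RNA in the ratios was not tested. Ctsd was at 1.52 on day 3 (1.48 to 1.55) and at 1.42 on day 0 (1.33 to 1.51), and it was at 1.57 on day 4 and 1.34 on day 5. The Ctsb ratio was 1.27, 1.35, 1.28 and 1.14 on days 0, 3, 4 and 5. On the log2 scale, Ctsd was at 0.60 on both day 3 and day 7, and Ctsb at 0.44 and 0.48. Ctss was level on day 3 at 1.02 (0.979 to 1.05), then at 0.668 on day 4 (0.642 to 0.695) and 0.787 on day 5 (0.763 to 0.811). Ctsz was at 0.886 on day 3 and at 0.746, 0.743 and 0.656 on days 4, 5 and 7. Ctsh was at 0.867 on day 3 and at 0.762, 0.700 and 0.666 on the later days. For Ctsl the ratio was 0.856 on day 3, 1.09 on day 4 and 1.54 on day 5 (1.46 to 1.62).

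**Figure D2:**
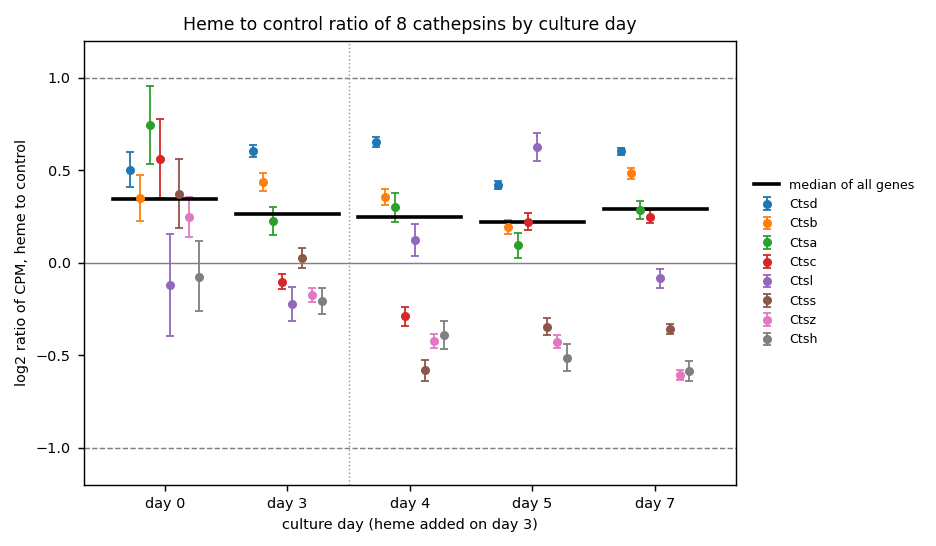
Log2 ratio of heme to control CPM (y axis) of the 8 cathepsins with 10 CPM or more, by culture day (x axis), with exact 95% intervals, black lines at the median of all genes and dashed lines at 2-fold. Ctsd lies above the median of all genes on each day including days 0 and 3, Ctsz, Ctss and Ctsh lie below 0 from day 4 on, and no gene crosses the 2-fold lines.

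Cells were then grouped by gate genes that are not cathepsins. The Marco, Ccr7 and C1qb gates each required 2 or more UMIs of that gene and S100a8, a calcium-binding protein gene of neutrophils, at under 2% of the cell's UMIs. The S100a8 gate held cells at 2% or more, and cells in no gate are called ungated. On day 7 the Marco gate held 775 cells of the heme library (38.5%) and 15 of the control library, the C1qb gate 744 control cells (27.4%) and 20 heme cells, and the Ccr7 gate 526 control cells (19.4%) and 38 heme cells. The S100a8 gate held 408 heme cells (20.3%) with a median of 7567.5 UMIs, and 107 control cells (3.94%) with a median of 3753. A gate with fewer than 50 cells gives no value, so on day 7 the Marco, Ccr7 and C1qb gates each had values in a single library, and gate and treatment cannot be told apart there. Of the macrophage markers, the Marco-gated cells had Mrc1 at 422 CPM, Csf1r at 258 and Spic at 156 CPM but C1qa at 1.73 and Cd163 at 0.471 CPM, the C1qb-gated cells had C1qa at 182 and Csf1r at 189 CPM, and the Ccr7-gated cells had the dendritic cell markers Ccl22 at 2595 and Fscn1 at 435 CPM. The gates are called by their gate gene.

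The Ccr7-gated control cells stood apart in their cathepsins. On day 7 they had Ctsd at 206 CPM, Ctsb at 188, Ctsc at 135, Ctsl at 64.0 and Ctsa at 55.9 CPM. In the C1qb-gated cells of the same library these were 5.24-fold (4.96 to 5.54), 2.94-fold, 3.14-fold, 3.73-fold and 3.80-fold higher. The gates shared 48 cells, which the intervals do not take into account. Ctss, at 866 CPM in the Ccr7 gate and 930 CPM in the C1qb gate, differed 1.07-fold (1.04 to 1.11). Ctsh went the other way, with 287 CPM in the Ccr7 gate and 252 CPM in the C1qb gate, a ratio of 0.879 (0.829 to 0.931), and Ctsz was at 585 and 972 CPM. The Ccr7 gate held 19.8% of control UMIs on day 7 but 3.36% of Ctsd UMIs, 19.1% of Ctss UMIs and 23.5% of Ctsh UMIs.

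Marco-gated heme cells had the highest Ctsd, Ctsb, Ctsc, Ctsa and Ctsk of the day 7 gates and ungated cells, at 2103, 960, 585, 295 and 14.9 CPM. Their Ctss was at 895 CPM, Ctsz at 642, Ctsl at 212 and Ctsh at 192 CPM. Against the ungated cells of the same library, Ctsb was 1.28-fold higher (1.25 to 1.32), Ctss 1.31-fold (1.27 to 1.35) and Ctsd 1.21-fold (1.19 to 1.24), while Ctsl was lower at 0.837 (0.792 to 0.884). The cathepsins together made up 0.590% of the UMIs of Marco-gated cells and 0.494% of those of ungated heme cells. In the control library they made up 0.467% in the C1qb gate, 0.239% in the Ccr7 gate and 0.540% in ungated cells.

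Single cells within a gate varied. In the Marco gate 100% of cells had a Ctsd UMI, and the 10th percentile, median and 90th percentile of cell CPM were 993, 1805 and 3590. In the C1qb gate 90.7% of cells had one, and the percentiles were 52.3, 575 and 2624. The C1qb gate thus reached down to cells with little Ctsd and the Marco gate did not, at median depths of 14453.5 and 17010 UMIs per cell. This was not particular to the Marco gate, since the 10th percentile was 549 in ungated heme cells and 151 in ungated control cells. The part of free RNA, estimated at 71.9 CPM of Ctsd in the heme library, was not tested. For Ctss the corresponding percentiles were 329, 803 and 1459 in the Marco gate, 316, 793 and 1686 in the C1qb gate and 308, 758 and 1466 in the Ccr7 gate.

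**Figure D3:**
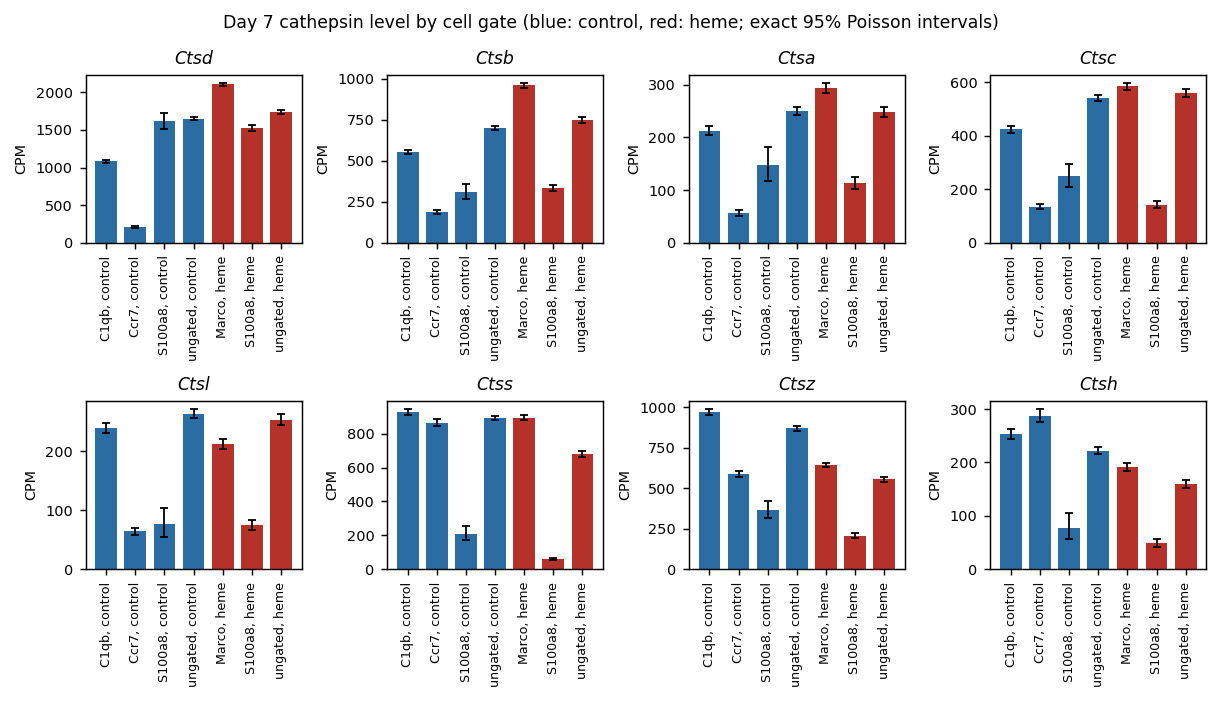
Day 7 level in CPM (y axis) of 8 cathepsins in cells of each gate (x axis) of the control library (blue bars) and the heme library (red bars), with exact 95% Poisson intervals. Ctsd is at 206 CPM in the Ccr7 gate and 2103 CPM in the Marco gate, whereas Ctss is between 682 and 930 CPM in the Ccr7, C1qb, Marco and ungated cells and lowest in the S100a8 gate.

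The ungated cells and the S100a8 gate could be compared between libraries on day 7. Ungated cells are those the gates left, and the gates took different cells from each library. The Marco gate (Ctsd at 2103 CPM) took 775 heme cells. The Ccr7 gate (206 CPM) and the C1qb gate (1082 CPM) took 526 and 744 control cells. The ungated cells of the libraries need not be alike, and the part of this in the ratios was not tested. Among ungated cells, the Ctsd ratio of heme to control was 1.05 (1.03 to 1.07) and that of Ctsb 1.07 (1.04 to 1.10), closer to 1 than in the whole culture. As log2 ratios these were 0.07 and 0.10, under the median of 0.23 for all genes in the ungated cells. Ctsz at 0.637 (0.618 to 0.657), Ctsh at 0.719 (0.678 to 0.763) and Ctss at 0.764 (0.742 to 0.786) were about as low as in the whole culture. Ctsk was at 10.3 CPM in ungated control cells and 4.58 CPM in ungated heme cells, a ratio of 0.442 (0.311 to 0.618), the opposite direction to the whole culture. In this comparison 1 of 9 members was 2-fold lower and 0 were 2-fold higher, where 4.14% and 8.05% of all genes were.

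Cells outside the S100a8 gate made up 33.4% of the day 4 control culture and 18.1% of the day 4 heme culture, and among them Ctss was at 464 and 474 CPM, a ratio of 1.02 (0.979 to 1.07). Ctsz was at 879 and 855 CPM there, a ratio of 0.973. So the day 4 ratios of 0.668 and 0.746 in the whole culture were near 1 outside that gate, whereas Ctsb was at 1.65 and Ctsd at 1.54. On the log2 scale Ctss was at 0.03 and Ctsz at -0.04 there, under the median of 0.23 for all genes. On day 5 the ratio of Ctsl outside the gate was 2.15, at 111 and 239 CPM, and among the ungated cells 2.21, at 130 and 286 CPM. That was the 1 member past 2-fold in each of these comparisons, where 8.07% and 8.16% of all genes were higher and 2.58% and 2.7% lower. With an S100a8 limit of 5%, the ungated log2 ratio of Ctsl was 0.99 in place of 1.14. On day 4, 0 members were past 2-fold outside the gate, where 8.44% of all genes were higher and 2.6% lower. On day 7 there were also 0, where 12.8% and 5.17% of all genes were, and cells outside the gate had Ctsd at 1.57, Ctsb at 1.52 and Ctsz at 0.716.

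The Ccr7 gate held enough cells in both libraries on day 5, with 150 control and 96 heme cells. Its Ctss was at 723 CPM in the control and 862 CPM in the heme library, a ratio of 1.19 (1.11 to 1.28), and its Ctsz at 725 and 845 CPM. As log2 ratios these were 0.25 and 0.22, just under the median of 0.30 for all genes in the gate. Ctsd was at 109 and 237 CPM, a ratio of 2.18 (1.86 to 2.56), and Ctsl at 19.6 and 60.5 CPM, a ratio of 3.08 (2.16 to 4.46). These were the 2 members past 2-fold, where 12.5% of all genes were higher and 2.47% lower. The other 6 members with 10 CPM lay between 1.04 and 1.33. With an S100a8 limit of 5% for the gate, Ctsd was at 0.88 on the log2 scale, under 2-fold. The mean Ctsd level of the whole heme culture was 1589 CPM on that day against 1187 CPM in the control, and the part of free RNA in the gate's values was not tested.

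Cells of the S100a8 gate showed another order of cathepsins. Ctsd had the highest level of the members there on days 3, 4, 5 and 7. It was at 252, 574, 1624 and 1618 CPM in the control library and at 422, 1017, 1958 and 1529 CPM in the heme library. Outside the gate Ctsd was higher on days 3 and 4, at 526 and 826 CPM in the control and 845 and 1269 CPM in the heme library. The heme level in CPM was higher on days 3, 4 and 5, at ratios of 1.67 (1.61 to 1.74), 1.77 (1.73 to 1.82) and 1.21 (1.18 to 1.23). As log2 ratios these were 0.74, 0.83 and 0.27. The medians of all genes in the gate were 0.37, 0.40 and 0.31, so Ctsd on day 5 lay just under the median. The day 7 interval of the Ctsd ratio, 0.881 to 1.02, included 1. Ctss was low in the gate, at 15.5, 27.5, 92.3 and 210 CPM in the control library and at 22.5, 37.9, 87.1 and 58.6 CPM in the heme library. On days 3, 4 and 5, 0 members were past 2-fold, where 9.32%, 8.17% and 5.78% of all genes were higher and 0.531%, 0.39% and 1.35% lower. On day 3 the control gate had 0.0487 of the Ctss level outside it, a wider gap than for Ctsd at 0.479. On day 7 Ctss was the 1 member 2-fold lower under heme, at 0.279 (0.221 to 0.352), where 5.06% of all genes were lower, and 0 members were 2-fold higher, where 15.8% were. With no limit on cells but 500 genes, the log2 ratio of Ctss was -0.97, just short of 2-fold, against -1.84 here. Ctsc at 0.570 and Ctsz at 0.567 were also lower in the gate on day 7. The neutrophil markers of the gate differed too on that day, with Ngp at 7943 CPM in the control and 24849 CPM in the heme library and Retnlg at 274 and 84.8 CPM, and their part in these ratios was not tested.

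**Figure D4:**
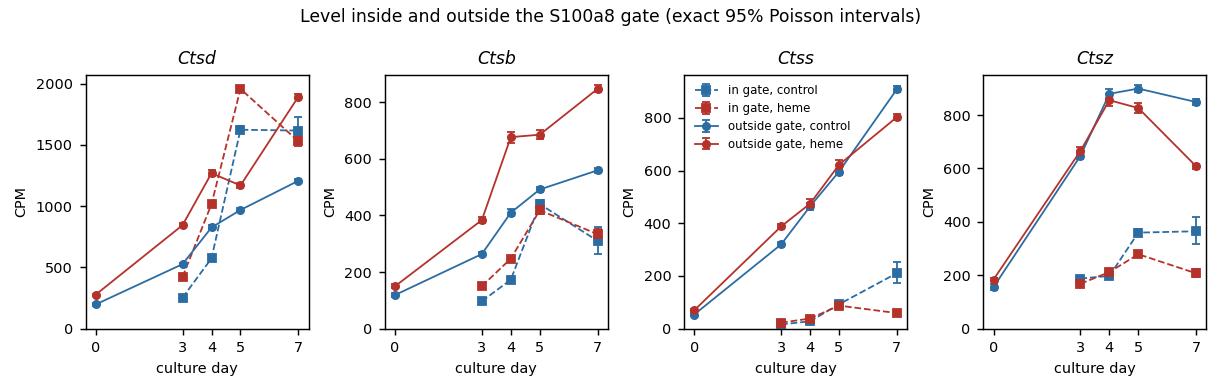
Level in CPM (y axis) of Ctsd, Ctsb, Ctss and Ctsz on each culture day (x axis) in cells inside (dashed, squares) and outside (solid, circles) the S100a8 gate of the control library (blue) and the heme library (red), with exact 95% Poisson intervals. Inside the gate Ctsd reaches 1624 and 1958 CPM on day 5 while Ctss stays at or under 210 CPM, and outside it Ctss lies at 464 and 474 CPM on day 4.

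Within the day 7 heme culture, cells outside the S100a8 gate were ordered by their Marco UMIs, in classes of 0, 1, 2 to 4, 5 to 9, and 10 or more, which held 697, 132, 136, 158 and 481 cells. Cells with more Marco UMIs were deeper (a median of 17651 UMIs in the last class and 11926 in the first), so levels in CPM are compared. Ctsd was at 1645, 1623, 1602, 1936 and 2272 CPM and Ctsb at 714, 708, 756, 889 and 1030 CPM over these classes. Both varied little over the first 3 classes and were higher in the last. Ctss was at 675 CPM in the first class and 954 CPM in the last, and Ctsz at 557 and 653 CPM. Ctsa was at 236 and 310 CPM and Ctsh at 163 and 196 CPM in these classes. Ctsl had no such order, with 236, 270, 195, 213 and 216 CPM, and Ctsc was highest at 5 to 9 Marco UMIs with 669 CPM. Ctsk was at 3.85, 6.79, 8.44, 14.7 and 16.6 CPM.

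Ctsk was the member most unevenly spread over the heme culture of day 7. The Marco gate held 47.2% of all UMIs there, 79.8% of Ctsk UMIs, and between 48.9% (Ctsl) and 60.4% (Ctss) of the UMIs of the other members. A Ctsk UMI was seen in 16.5% of Marco-gated cells (14.0 to 19.3), in 3.05% of ungated heme cells (1.97 to 4.51) and in 0.220% of day 0 cells of that library, which serve as the background. The median depths of the first pair were 17010 and 12289.5 UMIs. With each cell thinned to 3000 UMIs, the shares were 4.53% of 772 cells and 0.837% of 717 cells. In the control library on day 7, 4.84% of C1qb-gated cells, 5.82% of ungated cells and 0.190% of Ccr7-gated cells had one.

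**Figure D5:**
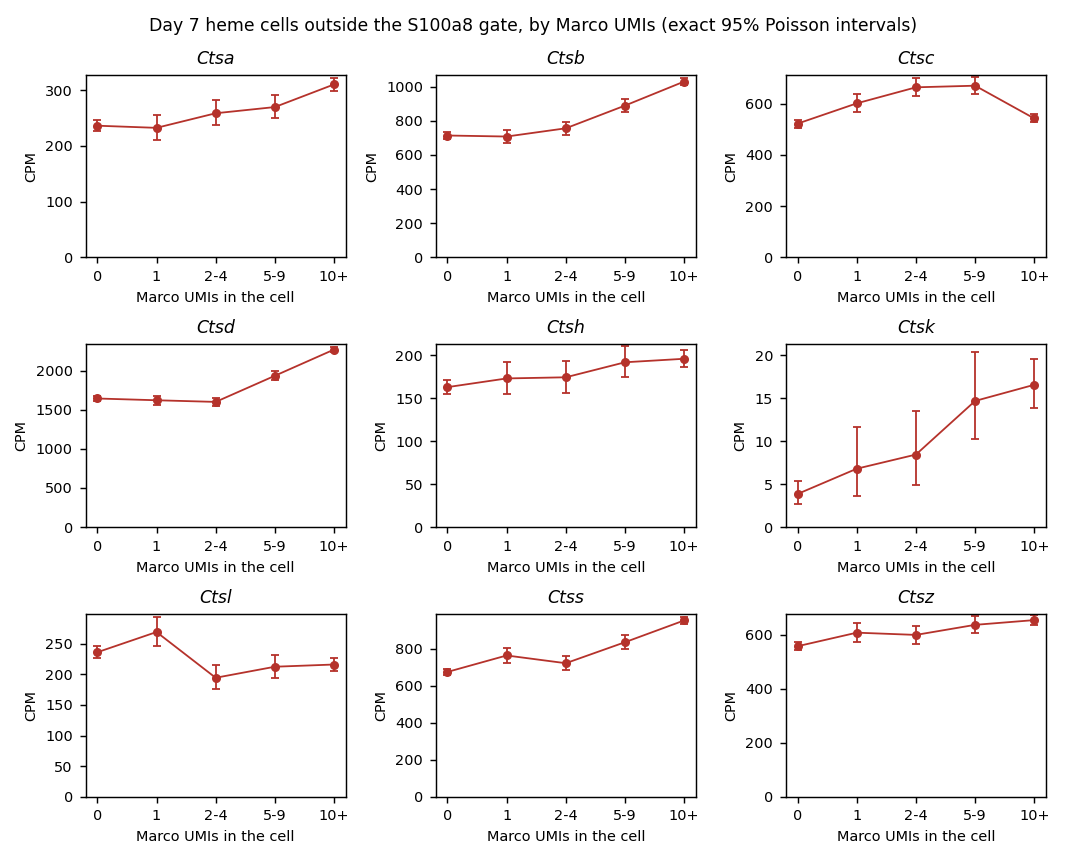
Level in CPM (y axis) of the 9 cathepsins in day 7 heme cells outside the S100a8 gate, by the number of Marco UMIs in the cell (x axis), with exact 95% Poisson intervals. Ctsd, Ctsb, Ctss, Ctsz, Ctsa, Ctsh and Ctsk are higher at 10 or more Marco UMIs than at 0. Ctsl is not, and the intervals of Ctsc overlap.

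Of the substrate and inhibitor genes examined, Cd74 and Cst3 were 2-fold or more lower in the heme library on day 7, Cst7 was 2-fold higher and Cstb was neither, where 5.01% of all genes were lower and 12.5% higher. Cd74, the invariant chain that cathepsin S cleaves, was at 230, 1573, 2801, 6626 and 9888 CPM in the control library and at 237, 1295, 1534, 3297 and 2167 CPM in the heme library. The day 7 ratio of Cd74 was 0.219, beside 0.779 for Ctss. Of the 4 cathepsin inhibitors listed, 3 reached 10 CPM on day 7. Cst3, the gene of secreted cystatin C, was at 953, 2390, 2931, 7962 and 11856 CPM in the control library and at 751, 1643, 1237, 2395 and 1195 CPM in the heme library. Its day 7 ratio was 0.101 (0.0996 to 0.102). Cstb, an intracellular inhibitor, was at 932 and 1072 CPM on day 7, and Cst7 at 6.93 and 15.5 CPM, a ratio of 2.23.

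Other lysosomal genes were compared on day 7 in fixed lists. Of 30 hydrolases with 10 CPM, 8 were 2-fold higher in the heme library and 1 was lower, where 12.5% of all genes were higher and 5.01% lower. Their median log2 ratio was 0.50 beside 0.29 for all genes. For the cathepsins it was 0.25 with Ctsk, which was under 10 CPM, included. Without Ctsk the middle values of the cathepsins were -0.09 (Ctsl) and 0.25 (Ctsc). The highest were Lipa, the acid lipase, at 2.97 and Ppt1, a thioesterase, at 2.46, and the lowest was Acp5, the tartrate-resistant acid phosphatase, at 0.245. Of 19 genes of the lysosomal membrane and of transport to it, 6 were higher and 1 lower beside the same 12.5% and 5.01% of all genes, with a median log2 ratio of 0.57. Slc11a1, a metal ion transporter of phagosomes, was at 5.91 and Sort1, a sorting receptor, at 5.72, while Gm2a, the GM2 activator, was at 0.393 and Psap, the saposin precursor, at 0.781. Of the 4 MiT/TFE factors 2 were 2-fold higher, Tfec at 4.37 and Mitf at 2.85, again beside 12.5% of all genes, and Tfeb at 1.74 and Tfe3 at 1.60 were not. Tfec was at 101 and 113 CPM on day 3. Among the other cathepsins, Ctso was at 1.46 and Ctsg, a granule serine protease of neutrophil precursors, at 1.72 on day 7. Ctsg had been at 412 CPM in the control and 99.5 CPM in the heme library on day 3, the day labelled as that of heme addition.

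The time courses of the members were alike to different degrees. Over the 10 cultures, which share 2 libraries and their depths, the Pearson r of log2(CPM + 1) between the 8 abundant members ran from 0.793 (Ctsd with Ctsh) to 0.984 (Ctsb with Ctsd). Ctsh was most like Ctsz among them, at 0.971, and Ctss, at 0.968. Among 2876 genes with a mean of 50 CPM or more, the genes most alike were Trpv2 (0.992), Cd274 and Ccdc71l for Ctsd, and P2ry14 (0.991), Ctsd and Mcl1 for Ctsb. They were Csf1r (0.991), Wfdc17 and Mcl1 for Ctsa, Naaa (0.9896) and Olfm1 for Ctsc, and Tm2d2 (0.981), Fabp5 and Atox1 for Ctsh. For Ctsl they were Tmem50a (0.981), Fuca1 and Fabp5, for Ctss Trem2 (0.988), Vim and Psap, for Ctsz Lgals3 (0.994), Mcub and Cd74, and for Ctsk Trem2 (0.925), Ctss and Tmem50a.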

How the data were processed

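Per the labels and methods, the authors pooled hashtag-stained cells, made 3′ single-cell libraries and counted reads with Cell Ranger (4.0.0 in the submitters' processing notes, 5.0.0 in the matrix header) on GRCm38.p6. The deposited matrices hold whole-number UMI counts per gene and cell, and deposited text files hold barcodes, gene names and the hashtag calls, made with Seurat 3.2.3. Here hashtag singlets with 500 to 5000 genes, under 15% mitochondrial and under 30% ribosomal UMIs were kept, so doublets were removed only through the hashtag calls. Counts were summed per culture day or gate and scaled to 1000000 UMIs (CPM). No count model was fitted, because each group was 1 library. Ratios carry exact conditional binomial 95% intervals. Their coverage was checked only on counts simulated from the Poisson model that they assume, which leaves out variation between cells and cultures. A ratio of 2-fold or more is reported as higher or lower among genes with 10 CPM in at least 1 culture. The member counts of whole cultures also keep Ctsk, which was under 10 CPM there. The series text gives hours after heme and the labels give days, and culture days are used. Gene positions come from GENCODE M21. Members and lists were chosen with earlier results of these data known. Genes named were the 9 members, their 3 most alike genes, the 2 highest and 2 lowest of each list on day 7, Cd74 and the gate genes, and a few marker genes and Hmox1 were added after their values were seen. Some genes this rule names are not reported here. Alternatives were other cell limits, gates and scalings (edgeR 4.0.16 TMM, DESeq2 1.42.0, R 4.3.3), and 2 chosen after seeing the data (cells outside the S100a8 gate, and without shared barcodes). Analyses used Python 3.11.15, numpy 2.4.6, scipy 1.17.1 and pandas 2.3.3.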

Additional observations from a re-analysis of the deposited data

Results flagged for a closer look

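In cells of the S100a8 gate, the heme to control log2 ratio of Ctss was 0.53 on day 3 and -1.84 on day 7, a difference of 2.38 between the days with opposite directions. The difference between the days was not tested, since each group was 1 library. The control value of day 7 rested on 107 cells with a median of 3753 UMIs.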

How the results depend on the processing

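No paired analysis was possible because each group was 1 library. On day 7 Ctsd, Ctsb, Ctss, Ctsz and Ctsh kept their direction under the alternatives run, with log2 ratios of 0.00 to 0.68, 0.05 to 0.73, -0.65 to -0.07, -0.90 to -0.39 and -0.88 to -0.38, and Ctsa, Ctsc, Ctsk and Ctsl changed sign under at least 1. The 0.00 of Ctsd came from dividing by its day 3 ratio. The day 7 ratio of the summed cathepsin share was 1.22 with a limit of 500 genes only, 1.21 with all singlets, 1.17 outside the S100a8 gate, 1.09 without shared barcodes, 1.05 without the 5% of cells with most UMIs, 1.02 with cells weighted equally and 0.982 after division by the day 3 value. With 500 genes only, with all singlets and outside the S100a8 gate, 1 member (Ctsl) was 2-fold higher on day 5 and 0 were 2-fold lower on day 4, and with cells weighted equally 1 (Ctsk) was higher on day 0. The median log2 ratio of the other cathepsins turned to 0.46 on day 3 and 0.52 on day 4 with a minimum of 20 UMIs in place of 10 CPM. The shift of all genes, a median log2 ratio of 0.22 to 0.34 by day, was close to 0 under TMM and DESeq2 scaling. The day 7 value of Ctsk in ungated cells could not be given with a gate of 3 UMIs or with 500 genes only, where it was under 10 CPM. The cause of these changes was not tested. Depth limits Ctsk above all, with 1 to 238 UMIs per culture.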
